A study of Mus musculus with 30 samples.

Results

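The p53 pathway was followed here through 36 genes, of the 55401 in the count table, in lymphoma cells that had lost Arf. The genes were listed by name, with earlier results of these data known: Trp53, its regulators Mdm2, Mdm4 and Ppm1d, and genes known to be switched on by p53. The question was how much p53 output each cell line showed and how it varied among the paclitaxel resistant lines. p53 is a transcription factor that is kept low by the ubiquitin ligase Mdm2 and its partner Mdm4. Arf, a product of the Cdkn2a locus, holds Mdm2 back when Myc is overexpressed, so a Myc-driven B cell lymphoma without Arf can arise with the p53 gene in place. When p53 is active it drives genes of cell cycle arrest, cell death and repair, and also Mdm2, Ccng1 and Ppm1d, which act back on p53.

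All 30 libraries came from a mouse B cell lymphoma line with the Eµ-Myc transgene and without p19ARF. Parallel wells of 10000 cells were given paclitaxel, a drug that stabilizes microtubules, at a dose meant to kill 85% of the cells over 3 days, or DMSO, the solvent, and then had 4 days without drug, for 12 to 18 weeks. RNA of 12 DMSO control lines, 17 paclitaxel resistant lines and the parental line was read by sequencing tags from the 3′ end of transcripts, with 1 library for each line. Lines are wells seeded with many cells, which the study calls subclones, all from the same parental culture, and the sources used here do not say whether drug was present when RNA was taken. Arf was absent from every group, controls included.

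Total counts ran from 1053948 to 6739131 in the DMSO lines and from 480919 to 6682169 in the paclitaxel lines, and the library labelled Parental held 1851837. Levels are given as TMM-normalized CPM, the counts of a gene scaled to the library total, a scale that compares a gene between libraries and not genes with each other. Of 10 B cell markers, 9 were found in every library, and in the DMSO and paclitaxel lines their summed level was 4505 to 11750 CPM, whereas the fibroblast and the epithelial markers each summed to less than 1 CPM. T cell markers summed to 13.02 CPM at most and myeloid markers to 50.6 CPM. Cdkn2a had 0 counts in all 30 libraries, but a 3′ tag outside the deleted part would not check the deletion. The library labelled DMSO 12 held 70.3 CPM of Abcb1b, a drug efflux pump, above the other 11 DMSO libraries (16.04 to 45.8), and the library labelled Pac H9 held 26.3 CPM, below the other 16 paclitaxel libraries (42.2 to 258.5). By this gene these libraries go against their labels. Pmaip1 was 37.1 CPM in the library labelled Pac H9, above every DMSO line, and 14.7 CPM in that labelled DMSO 12, within the range of both groups. Whether every label from DMSO 12 on is displaced by 1 library was not settled here. Such a shift would leave the treatment of the other 16 paclitaxel libraries as labelled, but it would put each of their line names and the label Parental in doubt. Names from DMSO 12 on therefore stand for libraries so labelled, and the results were also computed without the libraries labelled DMSO 12 and Pac H9. In bulk RNA, fewer cells with a transcript and less of it per cell cannot be told apart.

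p53 acts through its own DNA element. The sequences below are those of the 4 members with a window that held a match to it with at most 2 mismatches. They were not chosen by their levels: Sesn1 is among them and did not move with the other targets, and Mdm2 and Trp53inp1, which did, are not. The 250 bases before a RefSeq start of each gene are printed (GRCm38.p6, on the strand of the gene), with the best match to the p53 response element in capitals. A gene can have several starts, and the window with the match is printed. That element is 2 half-sites of 10 bases, a spacer of 0 to 13 bases between them, with a C at position 4 and a G at position 7 of each half-site. It reads alike on both strands. The Cdkn1a window was chr17:29090729-29090978, the Ccng1 window chr11:40755287-40755536, the Cd80 window chr16:38458683-38458932 and the Sesn1 window chr10:41887189-41887438. The Cd80 and Sesn1 windows belong to internal starts, inside the annotated genes (chr16:38455561-38496335 and chr10:41809935-41908424).
Cdkn1a: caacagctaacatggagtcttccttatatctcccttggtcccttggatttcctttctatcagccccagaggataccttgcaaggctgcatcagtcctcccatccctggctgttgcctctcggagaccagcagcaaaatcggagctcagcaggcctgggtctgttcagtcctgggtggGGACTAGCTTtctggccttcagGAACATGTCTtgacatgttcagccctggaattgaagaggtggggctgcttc
Ccng1: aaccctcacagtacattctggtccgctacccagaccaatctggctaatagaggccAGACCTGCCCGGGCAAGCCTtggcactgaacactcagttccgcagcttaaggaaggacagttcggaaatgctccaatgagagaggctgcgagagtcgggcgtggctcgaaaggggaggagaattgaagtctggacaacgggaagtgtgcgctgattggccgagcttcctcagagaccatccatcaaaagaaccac
Cd80: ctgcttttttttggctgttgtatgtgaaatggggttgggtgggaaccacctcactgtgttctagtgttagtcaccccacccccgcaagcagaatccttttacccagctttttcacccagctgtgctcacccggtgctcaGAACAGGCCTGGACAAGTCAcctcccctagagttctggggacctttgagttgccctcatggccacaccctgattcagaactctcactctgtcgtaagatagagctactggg
Sesn1: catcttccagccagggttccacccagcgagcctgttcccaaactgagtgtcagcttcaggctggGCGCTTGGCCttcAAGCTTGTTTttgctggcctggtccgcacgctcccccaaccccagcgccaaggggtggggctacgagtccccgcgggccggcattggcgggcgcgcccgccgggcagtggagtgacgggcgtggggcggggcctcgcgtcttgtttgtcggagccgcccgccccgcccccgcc
The Cdkn1a match had 0 mismatches and a spacer of 12 bases, and its second half-site was followed directly by tgacatgttc, which completes a pair without spacer and with 1 mismatch. The Ccng1 match had 1 mismatch and no spacer. Cd80 had 2 mismatches without a spacer, and Sesn1 2 mismatches with a spacer of 3. RefSeq windows, 40 in all, were matched for 28 of the 36 genes. The best match over the windows of a gene was used, for members and all genes alike. Searched over the whole window, from 250 bases before to 50 after the start, 2 of the 28 held a match with at most 1 mismatch, against 0.718% of 27025 genes, and 4 of the 28 one with at most 2, against 4.71%. A match is a description of letters, and p53 is known to act on several of its targets from sites outside such a window.

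Trp53 RNA was present in every library. It was 176 CPM in the lowest DMSO line, 256 at the median and 394 in the highest, against 182, 294 and 429 in the paclitaxel lines, and 211 in the library labelled Parental. The groups overlapped, and the difference was 0.15 on the log2 scale (SE 0.13, edgeR quasi-likelihood test, adjusted p = 0.478). The DMSO value of 394 was that of the library labelled DMSO 12. Without it and Pac H9 the highest DMSO line was at 315 CPM, 5 of 16 paclitaxel lines lay above it at 344 to 429 CPM, and the difference was 0.19 (SE 0.13, edgeR adjusted p = 0.374). These counts read the amount of the transcript and not its sequence or the protein.

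Mdm2, the ligase that p53 itself induces, was 15.2, 21.8 and 50.4 CPM in the lowest, median and highest DMSO line, and 8.26, 27.2 and 145 CPM in the paclitaxel lines. The value of 145 belonged to Pac G9, 2.70 times the next library, and without that line the log2 difference fell from 0.52 (SE 0.30, adjusted p = 0.273) to 0.17 (SE 0.22, adjusted p = 0.685; both edgeR). Mdm4, which blocks p53 without being a ligase, was 68.4 ± 18.0 CPM (SD, n = 12) in DMSO and 81.1 ± 41.7 (n = 17) in paclitaxel lines. Both SDs rested on 1 library: without the library labelled DMSO 12, at 22.2 CPM, the first was 11.04, and without Pac G9, at 209.9 CPM, the other was 26.1 and the log2 difference of Mdm4 went from 0.25 to 0.08 (edgeR adjusted p = 0.48 and 0.819). Ppm1d, the phosphatase Wip1, was 7.19 ± 3.98 and 13.2 ± 10.6 CPM, with 6 paclitaxel lines above every DMSO line, and did not pass the test (log2 difference 0.90, SE 0.39, edgeR adjusted p = 0.149).

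**Figure D1:**
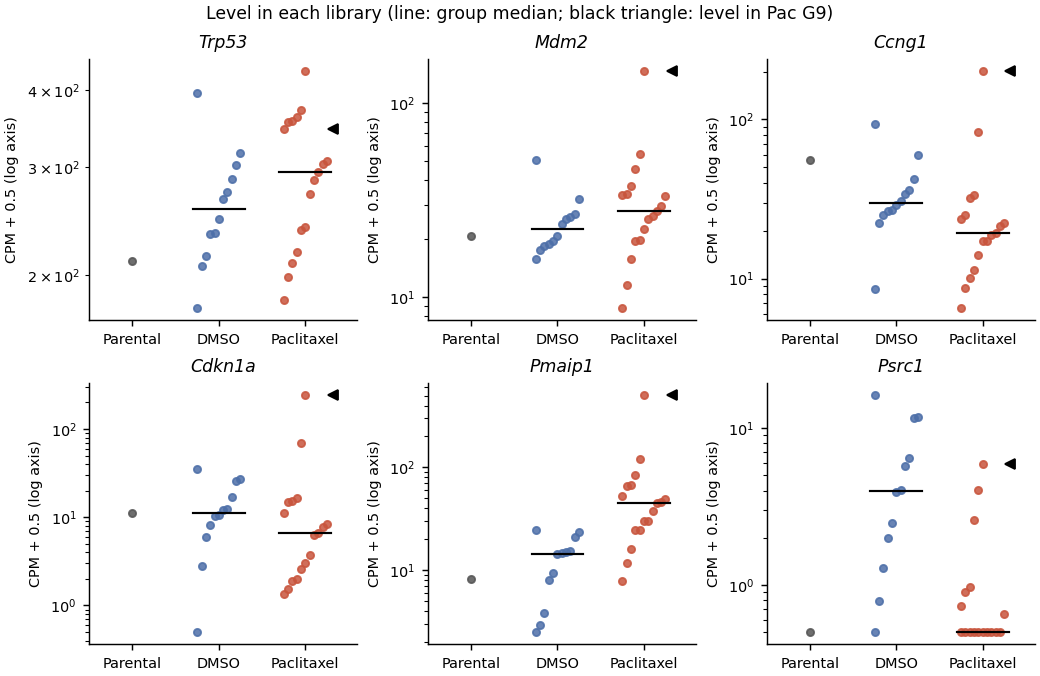
Normalized CPM plus 0.5, on a log axis, of 6 members in each library, grouped as parental, DMSO and paclitaxel; points are libraries, lines are group medians and the triangle marks Pac G9. Pac G9 is the highest library for Mdm2, Ccng1, Cdkn1a and Pmaip1, 14 of 17 paclitaxel lines lie above every DMSO line for Pmaip1, and 10 paclitaxel lines are at 0 for Psrc1.

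Of the 36 genes, 24 passed the filter on low counts. Of these, 1 was called higher in the paclitaxel lines, where 0.995% of the 9445 genes tested were called higher, and 0 were called lower, where 1.21% were (edgeR, threshold 0.01). In either direction 2.20% of all genes were called. DESeq2 and edgeR's likelihood ratio test called the same gene, Pmaip1, and no other member. An unadjusted p under 0.05 was reached by 4 of the 24 members (16.7%), against 25.1% of all genes tested. Their fold changes were above 0 in 20 of 24 with a median of 0.23, against 56.6% and 0.07 for all genes, and without the library Pac G9 this became 15 of 24 and 0.04. Without the libraries labelled DMSO 12 and Pac H9 it was 17 of 24 and 0.17.

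Pmaip1, which codes for the BH3-only death protein Noxa, was the member that rose. It was 2.00, 14.02 and 23.8 CPM in the lowest, median and highest DMSO line, 7.35, 44.2 and 511 CPM in the paclitaxel lines, and 7.75 in the library labelled Parental. All DMSO lines lay below 14 of the 17 paclitaxel lines, and the other 3 were Pac D4 at 15.5, Pac H3 at 11.4 and Pac E2 at 7.35. The log2 difference was 2.57 (SE 0.53, edgeR adjusted p = 0.00266). In Pac G9 the count was 3186, which gives 493 to 529 CPM as the exact 95% Poisson interval for counting error alone, and the next library, Pac C11, held 121. Leaving out Pac G9 lowered the log2 difference to 1.84 (adjusted p = 0.0037), and leaving out the libraries labelled DMSO 12 and Pac H9 gave 2.61 (adjusted p = 0.00308). The gene was called in all 29 fits that left out 1 library, and its adjusted p lay between 3.9e-05 and 0.00619 under all alternatives.

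**Figure D2:**
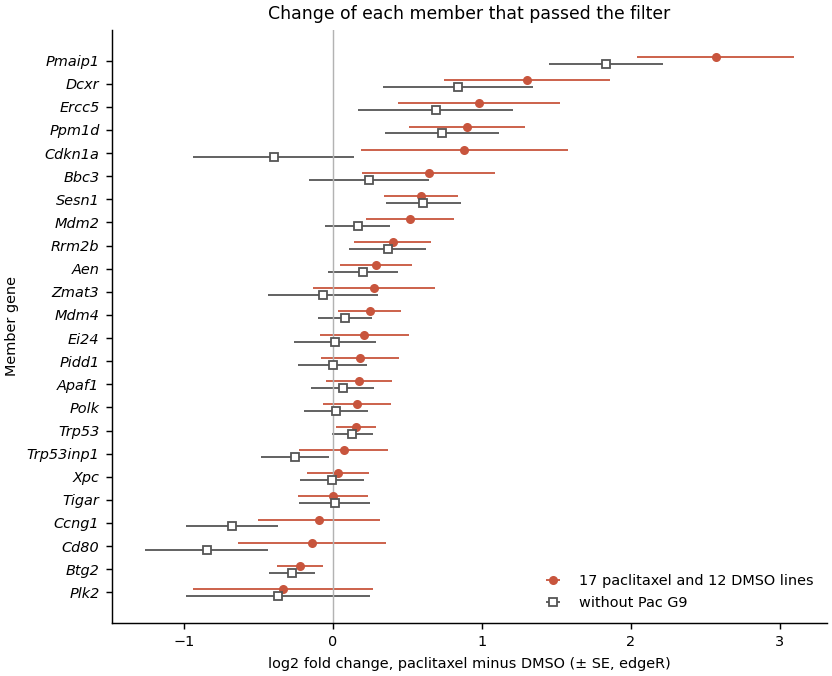
Log2 fold change, paclitaxel minus DMSO, with its standard error for the 24 members that passed the filter; filled circles use 17 paclitaxel and 12 DMSO lines and open squares leave out Pac G9. Pmaip1 is the highest in both fits, and Cdkn1a goes from 0.88 to -0.40.

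Cdkn1a (chr17:29090976-29100727, GRCm38), which codes for the cell cycle inhibitor p21, was spread unevenly among the lines. It was 0, 10.7 and 35.1 CPM in the lowest, median and highest DMSO line, 0.856, 6.20 and 245 CPM in the paclitaxel lines, and 10.7 in the library labelled Parental. In Pac G9 the 1528 counts gave 245 CPM (exact 95% Poisson interval 233 to 258), 3.58 times the next library, Pac A6 at 68.4. At the other end, 11 of 17 paclitaxel lines lay below the DMSO median. Pac E1 had 6 counts of Cdkn1a in a library of 4602674, or 1.41 CPM (interval 0.517 to 3.07), and Pac D4 had 7 counts in 4192653. The library labelled DMSO 12 had 0 counts of Cdkn1a, where a floor of 3 counts stands for 1.52 CPM. Single counts in Pac D10 and Pac C3 were below their floors of 3.10 and 2.57 CPM, so these shallow libraries do not set a level. The mean difference therefore had no stable sign: 0.88 on the log2 scale with all lines (SE 0.70, edgeR adjusted p = 0.441), -0.40 without Pac G9 (SE 0.54, adjusted p = 0.699) and -0.41 with DESeq2 (adjusted p = 0.639). The DESeq2 value was close to that without Pac G9, and whether it is separate from the weight of that library was not tested.

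Ccng1 (chr11:40748552-40755311, GRCm38), cyclin G1, which recruits a phosphatase to Mdm2, followed a similar order of libraries. It was 8.09, 29.6 and 92.6 CPM in the lowest, median and highest DMSO line, 6.00, 18.7 and 201 CPM in the paclitaxel lines, and 54.9 in the library labelled Parental. Pac G9 was highest, followed by DMSO 11 at 92.6 and Pac A6 at 83.5, and 13 of 17 paclitaxel lines were below the DMSO median. The DMSO low of 8.09 CPM was that of the library labelled DMSO 12, and the next DMSO line, DMSO 5, was at 21.9. Without DMSO 12 and Pac H9, most paclitaxel lines lay below every DMSO line. The log2 difference was -0.09 (SE 0.41, edgeR adjusted p = 0.909) and -0.68 without Pac G9 (SE 0.31, edgeR adjusted p = 0.194). Without the libraries labelled DMSO 12 and Pac H9 it was -0.18 (SE 0.42, edgeR adjusted p = 0.821). Over the 29 lines Ccng1 and Cdkn1a had a Pearson correlation of 0.928 and a Spearman correlation of 0.86 on log2(CPM + 1), and the Pearson value was 0.865 without Pac G9, Pac A6 and DMSO 11, the 3 libraries with the highest score. The same Pearson values with Cdkn1a were 0.681 and 0.331 for Mdm2, 0.672 and 0.626 for Psrc1, and 0.25 and -0.208 for Pmaip1. For Trp53 they were -0.36 and -0.423. The points share a culture history and the same library construction, and each gene's value shares the library's scaling.

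**Figure D3:**
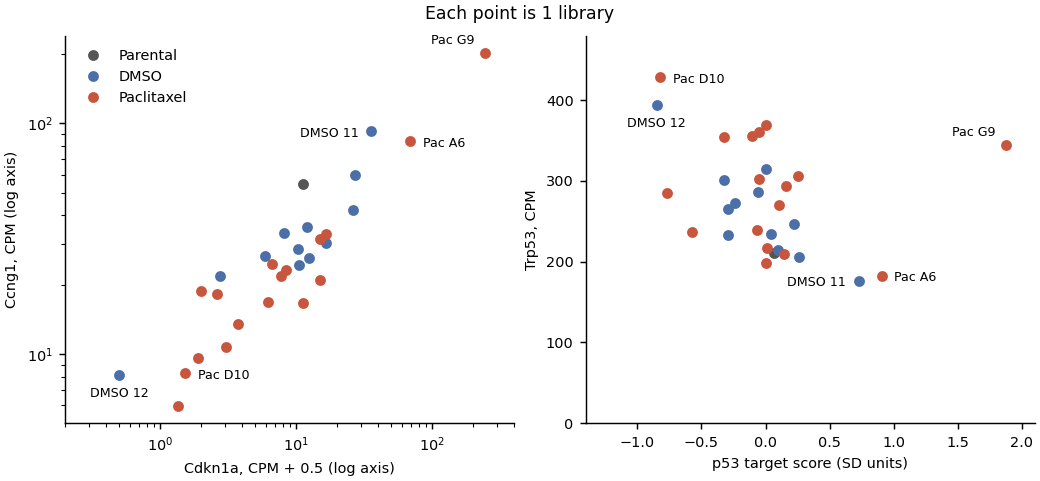
Left, Ccng1 in CPM against Cdkn1a in CPM plus 0.5, both on log axes; right, Trp53 in CPM against the p53 target score in SD units; each point is a library. Ccng1 and Cdkn1a rise together from a low end that holds Pac C3, Pac D10 and DMSO 12 to Pac G9, whereas the 2 libraries with the most Trp53, Pac D10 and DMSO 12, have the lowest scores.

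Among the other arrest genes, Btg2, an antiproliferative cofactor, was 309 ± 67.9 CPM in DMSO and 265 ± 90.6 in paclitaxel lines, with 8 paclitaxel lines below every DMSO line, and did not pass the test (log2 difference -0.22, edgeR adjusted p = 0.389). Plk2, a stress-induced kinase, ran from 0 to 112 CPM in DMSO and from 0 to 69.4 CPM in paclitaxel lines. Plk3 reached 3.35 CPM at most.

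Psrc1, which codes for a microtubule-binding protein of the mitotic spindle, failed the filter on low counts, yet its counts lay unevenly. They were found in 11 of 12 DMSO lines, all but the library labelled DMSO 12, and in 7 of 17 paclitaxel lines. The DMSO lines were at 0, 3.47 and 15.9 CPM (lowest, median, highest) and the paclitaxel lines at 0, 0 and 5.45, and the library labelled Parental also had 0. The highest paclitaxel lines were again Pac G9 at 5.45 and Pac A6 at 3.55, and 15 of 17 lay below the DMSO median, of which Pac C1, with 1 count and a floor of 6.27 CPM, could not be placed. In the fit without a filter the log2 difference of Psrc1 was -2.64 (SE 0.68, edgeR adjusted p = 0.0209), which is not past the threshold of 0.01.

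Of the remaining death genes, Bbc3, which codes for the BH3-only protein Puma, was 2.58 ± 1.54 CPM in DMSO and 3.94 ± 4.27 in paclitaxel lines, with 16.8 in Pac G9 and 8.38 in Pac A6. Trp53inp1, a stress protein that enhances p53 activity, was 29.8, 103 and 140 CPM in the lowest, median and highest DMSO line, 27.9, 72.2 and 411 CPM in the paclitaxel lines, and 170 in the library labelled Parental. The 29.8 CPM were those of the library labelled DMSO 12, and the next DMSO line, DMSO 5, was at 53.7. Below DMSO 5 lay Pac D10 at 27.9, Pac E1 at 37.6, Pac C1 at 48.1 and Pac H8 at 51.9, and Pac B2 and Pac H3 were nearly tied with it. The 411 CPM were those of Pac G9, 2.44 times the next paclitaxel or DMSO line, Pac F10. Aen, Ei24, Apaf1 and Pidd1 had log2 differences of 0.29, 0.21, 0.18 and 0.18, all with edgeR adjusted p-values above 0.4. Leaving out 1 library moved Aen between 0.20 and 0.39, Ei24 between 0.017 and 0.56, Apaf1 between 0.066 and 0.33 and Pidd1 between -0.0018 and 0.32. Each of these genes was at its lowest without Pac G9. The death receptor Fas had 151 of its 244 counts in Pac G9, at 24.2 CPM, and 4.84 CPM in Pac A6. The receptor Eda2r had 34 of its 39 counts in Pac G9 and 0 counts in every DMSO line. Tnfrsf10b did not exceed 2.00 CPM, and Perp had 0 counts in all libraries.

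The survival and metabolic targets were mixed: Dcxr, Ak1 and Rap2b were highest in Pac G9, and Sesn1, Tigar, Sesn2 and Phlda3 were not. Sesn1, sestrin 1, which restrains mTORC1, was 13.7, 29.3 and 60.7 CPM in the lowest, median and highest DMSO line and 2.09, 46.2 and 113 CPM in the paclitaxel lines, of which 16 of 17 lay above the DMSO median. Its highest library was Pac D7, and Pac G9 held 35.0 CPM. The 60.7 CPM were those of the library labelled DMSO 12, and the next DMSO line, DMSO 7, held 46.9. The log2 difference was 0.59 (SE 0.25, edgeR adjusted p = 0.132), and 0.71 without the libraries labelled DMSO 12 and Pac H9 (adjusted p = 0.0729). Tigar, which lowers glycolysis, was 41.6 ± 11.4 and 42.7 ± 25.2 CPM. Dcxr, a carbonyl reductase, was 2.96 ± 2.65 and 6.82 ± 8.92 CPM, with 35.4 in Pac G9, and did not pass the test (log2 difference 1.30, adjusted p = 0.143). Ak1, adenylate kinase 1, had 46 of its 58 counts in Pac G9. Sesn2, Phlda3 and Rap2b failed the filter, with at most 8.60, 4.18 and 6.57 CPM.

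Of the repair genes, Ercc5, a nucleotide excision repair nuclease, was 5.50 ± 3.31 CPM in DMSO and 10.6 ± 11.6 in paclitaxel lines, of which 7 lay above every DMSO line, Pac C1 among them with only 7 counts. At the low end the lines could not be ordered: Pac C3, Pac D10 and Pac H9 had 0 counts of Ercc5, where floors of 3 counts stand for 2.57, 3.10 and 2.72 CPM, and the lowest DMSO line was at 1.05 CPM. Rrm2b, Xpc and Polk had log2 differences of 0.40, 0.04 and 0.16, which ran from 0.26 to 0.59, -0.067 to 0.12 and 0.023 to 0.21 when 1 library was left out, and Ddb2 stayed at 1.17 CPM or less in the 29 lines and 1.79 in the library labelled Parental. Zmat3, an RNA-binding splicing regulator, was 11.0 ± 10.5 and 13.1 ± 12.2 CPM, highest in Pac G9 at 53.7, then DMSO 11 at 41.0 and Pac A6 at 28.7. Cd80, a costimulatory ligand of B cells, was 46.2 CPM in Pac G9, 4.22 times the next paclitaxel or DMSO line. Its lowest DMSO value came from 2 counts in DMSO 9, under the floor of 2.98 CPM, and Pac D10, Pac E1 and Pac C3 had 0, 0 and 1 counts, so their order was not detectable. Gdf15, a secreted stress cytokine, reached 2.08 CPM at most.

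**Figure D4:**
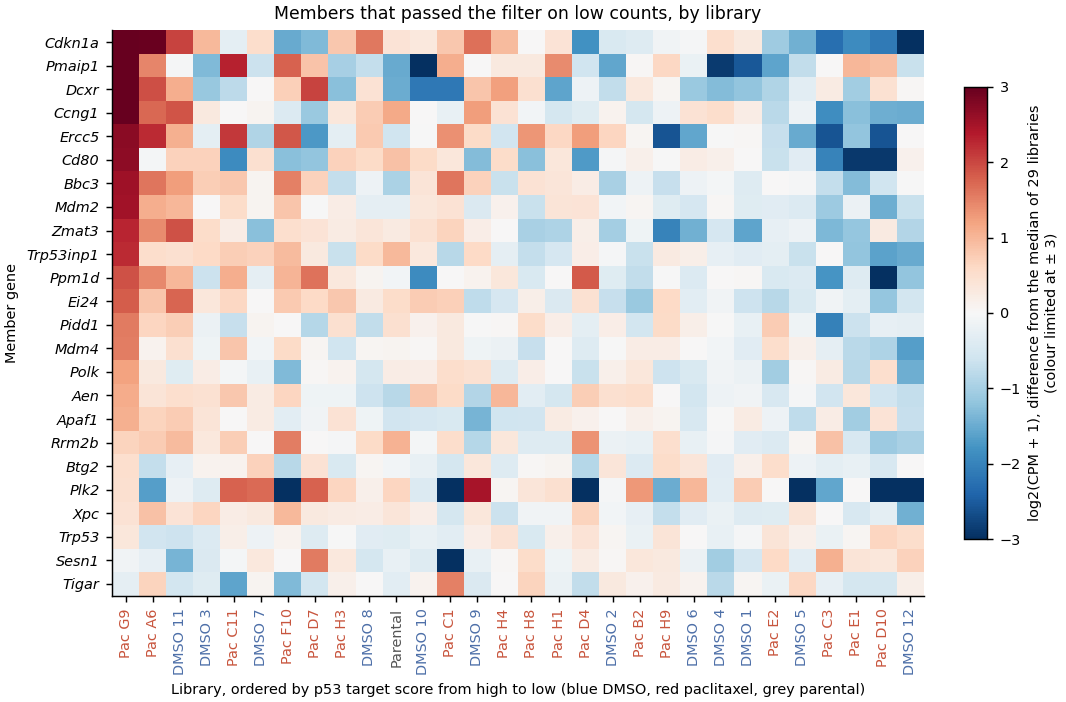
Log2(CPM + 1) of the 24 members that passed the filter, as the difference from the median of the 29 DMSO and paclitaxel lines, with colour limited at 3 in either direction; columns are libraries ordered by p53 target score. Pac G9 is the highest of the 29 lines in 17 rows, and not in those of Rrm2b, Btg2, Plk2, Xpc, Trp53, Sesn1 and Tigar.

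Pac G9 stood apart from all others. It was the highest of the 29 lines for 17 of the 24 members that passed the filter and for 5 of the 12 that did not. It was the highest of the 29 for 3.41% of all 9445 genes tested, against 70.8% of the 24 members. No such share was computed over the genes that failed the filter, so the 5 of 12 have none to be set against. The library held 5315840 counts, its mitochondrial share was 3.84% (27 libraries other than DMSO 11, Pac D4 and Pac C11: 1.34% to 7.39%), its T cell markers summed to 3.05 CPM and its B cell markers to 6491 CPM. It also held the most Abcb1b, 258.5 CPM against 118 CPM in the next line, Pac B2. The part of any of these in the target levels was not tested. With 1 library of this line there is no replicate of it, so no test sets it against the others.

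A p53 target score was computed for each library as the mean, over 21 members, of log2 CPM standardized over the 29 lines. The 21 are those that passed the filter other than Trp53, Mdm4 and Ppm1d. The score was 1.88 in Pac G9, where 19 of the 21 genes were above their mean, 0.91 in Pac A6 with 18 of 21, and 0.73 in DMSO 11 with 17 of 21. It was -0.85 in the library labelled DMSO 12, -0.82 in Pac D10, -0.77 in Pac E1 and -0.58 in Pac C3. The other 22 paclitaxel and DMSO lines lay between -0.32 and 0.26, and the library labelled Parental was at 0.07. DMSO 11 also had the highest mitochondrial share, 12.4%, and Pac D10 and Pac C3 held 989719 and 1222823 counts. The part of these in the scores was not tested.

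The study's own grouping of the paclitaxel lines by phenotype is not in the sample labels and was not used here, so it was not compared with the score. The mean score was 0.04 ± 0.62 (SD, n = 17) in the paclitaxel and -0.06 ± 0.39 (n = 12) in the DMSO lines, a difference of 0.10. The widest gap between neighbouring paclitaxel lines was 0.97, from Pac A6 to Pac G9, and it left 1 line above it. Without Pac G9 the SDs were 0.44 and 0.43 and the difference was -0.03. Without the libraries labelled DMSO 12 and Pac H9 the SDs were 0.64 and 0.32, and 4 paclitaxel lines scored below every DMSO line and 2 above. The fourth of the low lines, Pac E2, was nearly tied with DMSO 5 (-0.321 and -0.323 when all 29 lines set the scale). Of the other 3, Pac D10 and Pac C3 are the shallow libraries of the preceding paragraph, which leaves Pac E1, with 4602674 counts. These are descriptions of genes chosen with earlier results of the data known, and no test was made of the score.

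**Figure D5:**
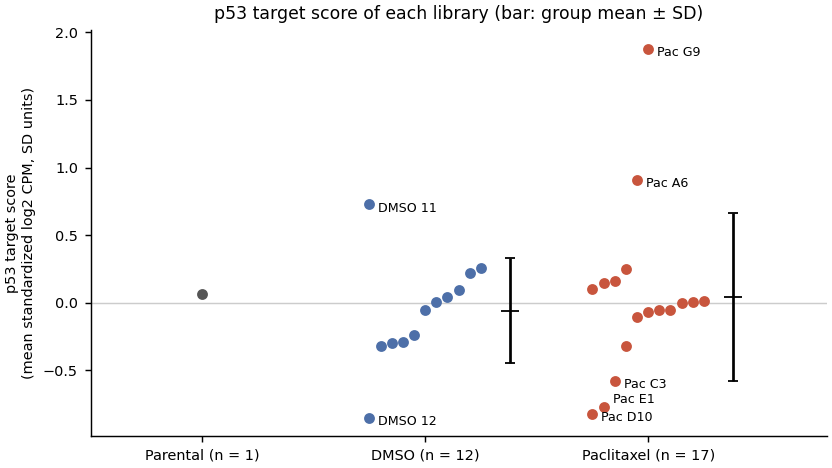
p53 target score (mean standardized log2 CPM over 21 targets, in SD units) of each library by group; points are libraries and bars are the group mean with its SD. Pac G9 lies at 1.88, Pac A6 at 0.91 and DMSO 11 at 0.73, and the 3 groups otherwise overlap.

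Whether single genes spread more among the paclitaxel lines than among the DMSO lines was tested with limma on the distance of each line from the median of its group. For 22 of the 24 members (91.7%) the distance was larger in the paclitaxel lines, as it was for 87.9% of all 9445 genes. None was called at the threshold of 0.01, and neither was any other gene (0% called). An unadjusted p under 0.05 was reached by 3 members, Cd80, Ercc5 and Pidd1 (12.5%), against 13.5% of all genes. The median ratio of the distances was 1.39 for the members and 1.52 for all genes. The members' share and ratio were near those of all genes. On simulated data with these group sizes the test found few of the genes whose spread had been changed, so the lack of calls does not show equal spread.

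The members moved together only in part. Over the 29 lines, the Pearson correlation of a gene with the mean of the other targets was 0.854 for Mdm2, 0.811 for Ccng1, 0.81 for Cdkn1a, 0.772 for Trp53inp1, 0.706 for Bbc3, 0.696 for Ei24 and 0.643 for Zmat3. Without Pac G9, Pac A6 and DMSO 11 it was 0.631 for Mdm2, 0.563 for Ccng1, 0.617 for Cdkn1a and 0.672 for Trp53inp1, and 0.28 for Zmat3. It was -0.283 for Sesn1, -0.105 for Tigar and 0.04 for Btg2. Pmaip1, the member that rose, had 0.392, and 0.071 without Pac G9. Trp53 RNA ran against the score, with a Pearson correlation of -0.313 and of -0.617 without Pac G9, while Mdm4 had 0.733 and 0.608 and Ppm1d 0.663 and 0.645. These are descriptions over lines that share a parent culture.

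Outside the 36 genes, the genes whose log2 CPM was most like the score over the 29 lines were Zc3hav1 (Pearson correlation 0.828), an antiviral RNA-binding protein, Pck2 (0.746), the mitochondrial form of PEP carboxykinase, Ddit4 (0.742), an inhibitor of mTORC1, Celf2 (0.741), Zbtb11 (0.735), Mllt3 (0.728), Bmt2 (0.725), Tap1 (0.724), a peptide transporter of antigen presentation, Wnk1 (0.722) and Atp2c1 (0.711). Of these, Ddit4 and Tap1 are themselves listed as p53 targets. For all 9445 genes the median was 0.059 and the 95th percentile 0.542. Without Pac G9 the correlations of the genes named ran from 0.589 (Atp2c1) to 0.778 (Zbtb11). Pax5, Mki67 and Ebf1, of the marker and cell cycle lists, then had 0.748, 0.744 and 0.736, so the ranking depended on Pac G9.

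Of 20 further p53 targets, 15 were tested and 0 were called by edgeR's quasi-likelihood test, with 3 at an unadjusted p under 0.05 (20%, against 25.1% of all genes). DESeq2, which called 491 of the 9445 genes, called Tap1 higher and Rps27l lower, and edgeR's likelihood ratio test, which called 448, called these and Ephx1. Rps27l, a ribosomal protein paralog, was 2249 ± 543 CPM in DMSO and 1419 ± 486 in paclitaxel lines (log2 difference -0.66, SE 0.17, edgeR adjusted p = 0.0146). In the other direction, Tap1 had a log2 difference of 1.34 (SE 0.38, edgeR adjusted p = 0.0262) and Ephx1 of 3.44 (SE 0.84, edgeR adjusted p = 0.0107). The medians of Ephx1 were 0.60 CPM in DMSO and 3.92 CPM in paclitaxel lines. Pac G9 was the highest line for 6 of the 15 (40%), Bax, Dyrk3, Ephx1, Gtse1, Slc19a2 and Tap1, and was not for the other 9, Fdxr, Triap1 and Rps27l among them. Of all genes tested, 3.41% were highest there. Ephx1, an epoxide hydrolase, was 128 CPM in Pac G9 and 16.7 in the next line. Bax, the pore-forming death effector, was 299.7 CPM in Pac G9 and 234 in the next line, Pac H4, and had near means in the groups (148 ± 25.7 and 147 ± 69.2 CPM).

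Of 18 genes that act on p53 or with it, 15 were tested and 0 were called by edgeR's quasi-likelihood test, its likelihood ratio test or DESeq2 (14 with an adjusted p), with 4 at an unadjusted p under 0.05 (26.7%, against 25.1% of all genes). Atm, the kinase that signals double-strand breaks, was 42.9 ± 12.5 CPM in DMSO and 28.03 ± 13.5 in paclitaxel lines (log2 difference -0.61, SE 0.21, edgeR adjusted p = 0.0703), and the coactivator Crebbp 25.6 ± 13.6 and 45.2 ± 33.4 CPM (0.82, SE 0.31, adjusted p = 0.0982). Of 27 cell cycle genes that p53 is known to repress through p21, 0 were called by the quasi-likelihood test, with 4 at an unadjusted p under 0.05 (14.8%, against 25.1% of all genes), and the other 2 tools called Kif23 lower. Their fold changes were above 0 for 11 and below 0 for 16, with a median of -0.05, against 56.6% above 0 and a median of 0.07 for all genes. In the test of spread 0 of the 27 were called, and 9 (33.3%) had an unadjusted p under 0.05, against 13.5% of all genes.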

How the data were processed

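RNA from 30 lines, 1 library per line, was made into barcoded 3′-end libraries with random molecular identifiers in 2 subpools of 15. Reads were aligned by the authors as single ends against GRCm38 (STAR 2.5.1b), who deposited the whole-number counts per gene, without filter or normalization. Whether identifiers were collapsed, and the subpool of each line, is not given in the sources used here, so this batch was not modelled and intervals cover counting error only. The number of columns of per-sample values not used was 0.

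Lines were grouped by the treatment in the labels. Counts of the 12 DMSO and 17 paclitaxel lines were fitted with edgeR 4.0.16 in R 4.3.3 (filterByExpr, TMM, quasi-likelihood F test, Benjamini-Hochberg over 9445 genes, threshold 0.01). The library labelled Parental was outside the fit. Spread was tested with limma 3.58.1 on the absolute deviation of log2 CPM (prior count 2) from the group median. p-values measure the spread between lines of the same parental culture. All 36 members are accounted for; libraries are described in full for Trp53, Mdm2, Cdkn1a, Ccng1 and members called, and Psrc1, Sesn1, Trp53inp1 and the genes led by Pac G9 were described after their values were seen. The other genes named are the 10 most like the score and members of listed sets. The members and lists were chosen with earlier results of these data known. Response elements were searched with at most 3 mismatches in a half-site. Code was tested on simulated data.

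Positions and symbols are from gencode M21 (the study names M25), which gave a symbol for 55141 of 55401 identifiers; Ei24 has another version there. Of the members, 13 overlap another annotated gene, 10 of them on the opposite strand, and strand use in counting is not given in the sources used here. For the closest libraries in a group, DMSO 6 and DMSO 9, the chi-square per gene was 5.68, so none was taken as a copy. Alternatives were RLE factors, other filters, DESeq2 1.42.0, edgeR's likelihood ratio test, thinning to 480919 counts, log10 total counts as a covariate, a prior count of 0.5, other definitions of the score and leaving out libraries. Fits and scores without Pac G9 together with DMSO 12 and Pac H9, and scores without each library, were chosen after seeing the data.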

Additional observations from a re-analysis of the deposited data

How the results depend on the processing

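No paired analysis was possible because the numbers of the DMSO lines and the well names of the paclitaxel lines do not pair. The cause of the following changes was not tested. The 208 genes called (94 higher, 114 lower) became 321 (158 higher) without the libraries labelled DMSO 12 and Pac H9, 338 (168 higher) without Pac C3 and DMSO 11, 112 (49 higher, 63 lower) after thinning, 491 (267 and 224) with DESeq2 and 448 (232 and 216) with the likelihood ratio test, and with log10 total counts as a covariate 157 were higher. Leaving out 1 library gave 139 to 299 genes, 54 to 159 higher and 77 to 147 lower, with the low of 139 without DMSO 4 and the high of 299 without DMSO 11. The member called was Pmaip1 under every alternative, with log2 differences from 1.84 to 2.76 when 1 library was left out. Genes called for spread numbered 2 without a filter, 1 with a prior count of 0.5 and 0 to 1 when 1 library was left out (1 without Pac C1), and members called for spread stayed at 0. The score difference was above 0 except without Pac G9 (-0.025) and without DMSO 12, Pac H9 and Pac G9 (-0.080), and Pac G9 had the highest score under every setting that kept it.

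Changes of sign occurred in members that did not pass the test. When 1 library was left out, the log2 difference of Cdkn1a ran from -0.40 (without Pac G9) to 1.19, of Ccng1 from -0.68 to 0.19 (without DMSO 11), of Trp53inp1 from -0.25 to 0.15, of Zmat3 from -0.068 to 0.76, of Pidd1 from -0.0018 to 0.32, of Xpc from -0.067 to 0.12, of Tigar from -0.14 to 0.072 and of Plk2 from -0.55 to 0.031. Without DMSO 12, Pac H9 and Pac G9 it was -0.45 for Cdkn1a, -0.31 for Trp53inp1, -0.034 for Zmat3, -0.047 for Pidd1, -0.029 for Ei24, -0.0033 for Xpc and -0.0033 for Polk. Without DMSO 12 and Pac H9 it was -0.041 for Trp53inp1, -0.031 for Xpc and -0.0054 for Tigar. DESeq2 gave -0.41 for Cdkn1a. Ccng1 was 0.19 without Pac C3 and DMSO 11 and 0.12 after thinning. Tigar was -0.038 without Pac C3 and DMSO 11, -0.030 without a filter, -0.0012 with at least 2 CPM in 12 libraries and -0.21 with the covariate, and Xpc was -0.0017 without a filter. In the library of 480919 counts, a floor of 3 counts stands for 6.27 CPM, so lower levels were not detectable there.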
